A study of Sander lucioperca with 12 samples.

Results

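The levels of 10 genes of the myelin sheath and of the cells that make it were followed in whole brains of juvenile pikeperch (Sander lucioperca), a predatory freshwater fish. The genes were chosen by symbol, all 10 were found among the 32963 named genes of the count table, and all 10 passed the filter on low counts in every comparison. The 12 libraries came from 4 groups of 3 fish, 1 library per brain, with no known genotype and no treatment. The groups were piscivores taken near the shore by seining in 2022 and in 2023, and planktivores taken from open water by trawling in 2022 and in 2023, in the last week of August in the same reservoir. All 12 were wild juveniles in their first year whose sex could not be told. In the study the groups do not overlap in body length, and from shortest to longest they stand in the order planktivores of 2023, planktivores of 2022, piscivores of 2023 and piscivores of 2022. Body length, phenotype and habitat therefore cannot be told apart within a year, and the labels give each year a batch date of its own, without saying what the batch is, so year and batch cannot be told apart either.

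Myelin is the insulating wrap that glial cells lay around axons so that nerve impulses travel faster. In the brain it is made by oligodendrocytes, which arise from precursor cells, leave the cell cycle, and then switch on the genes of the sheath under transcription factors such as Olig2, Sox10 and Myrf. In fish, unlike in mammals, myelin protein zero is a major protein of central as well as peripheral myelin. Fish brains keep growing and adding myelinated axons through juvenile life.

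Each library held between 15327406 and 33858794 reads assigned to named genes. Levels are given below as CPM, reads per gene relative to library totals adjusted by TMM factors, which compares 1 gene between libraries, and as TPM, the authors' length-scaled unit, which corrects for gene length and so compares genes with each other. The share of reads on the 34 rRNA genes separated the years, with 12.0% to 21.0% per library in 2022 against 0.137% to 0.36% in 2023. The least counted member, olig1, had at least 61 reads in every library.

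The 10 genes lie on 8 chromosomes of the SLUC_FBN_1.2 assembly, and the values are sums over all annotated exons of each gene. The compact myelin genes are mbpa on chromosome 14 from 19864184 to 19871423, mpz on chromosome 9 from 33215236 to 33234277, plp1b on chromosome 13 from 11157123 to 11162653 and plp1a on chromosome 1 from 37114474 to 37120716. The adhesion gene mag lies on chromosome 10 from 15094183 to 15120516. The lipid genes are ugt8 on chromosome 4 from 25309405 to 25333937 and enpp6 on chromosome 1 from 1321723 to 1351169. The transcription factor genes are myrf on chromosome 7 from 10643013 to 10666331, olig1 on chromosome 8 from 37331321 to 37332870 and olig2 on the same chromosome from 37350258 to 37352335, 17387 bases away. The span of 1 member, enpp6, overlaps another annotated gene, a long non-coding RNA on the opposite strand (LOC116042179). The exons of the pair share 0 bases, and the RNA reached at most 0.0287 CPM.

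Per length, mbpa, mpz and plp1b stood far above the other 7 genes. The gene mbpa encodes myelin basic protein, which holds the inner faces of the sheath together. It had a median of 3632 TPM over the 12 libraries (2137 to 6802) and ranked 18 among all genes by mean TPM. The adhesion protein gene mpz followed with a median of 2062 TPM (1535 to 4747) and rank 29. The proteolipid protein gene plp1b had a median of 1823 TPM (1374 to 3632) and rank 38. The gene mag, whose product sits in the membrane facing the axon, had a median of 205 TPM (110 to 356), and ugt8, which makes the main glycolipid of myelin, had 123 TPM (85.4 to 267). The second proteolipid gene, plp1a, had a median of 38.3 TPM (29.1 to 67.4), and plp1b exceeded it 34.8 to 53.9 times in every library.

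Among the regulators, the median was 76.9 TPM (50.5 to 125) for olig2, which founds the oligodendrocyte lineage, and 30.0 TPM (21.4 to 56.9) for myrf, which in mice is needed to switch on and maintain myelin genes. The gene enpp6, which encodes a phosphodiesterase and in mice marks oligodendrocytes that have just begun to differentiate, had a median of 9.73 TPM (7.37 to 14.0). The partner of olig2, olig1, was the least abundant with 5.44 TPM (3.16 to 7.58), and olig2 exceeded it 10.1 to 24.4 times within a library. The 10 genes together took a median of 0.795% of all TPM, from 0.536% in piscivore 1 of 2023 to 1.61% in piscivore 2 of 2022.

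**Figure D1:**
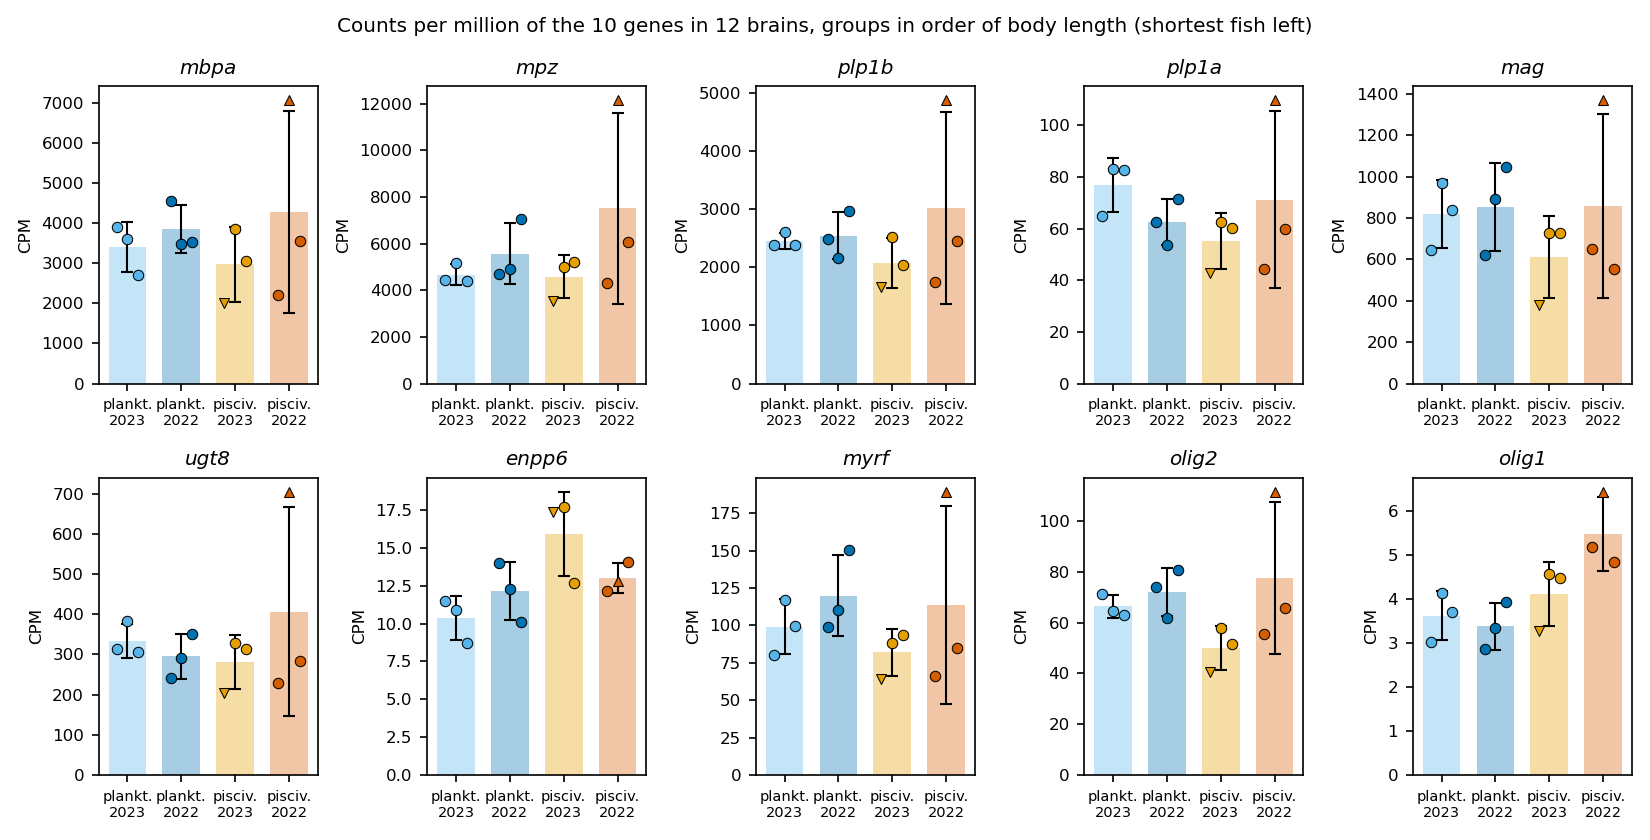
CPM of the 10 genes in each brain (points), with the group mean (bars) and SD (error bars, 3 fish per group), on axes that start at 0, groups in order of body length. The upward triangle is piscivore 2 of 2022, the highest library for 9 of the 10 genes, and the downward triangle is piscivore 1 of 2023, the lowest for 8 of them.

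Among the piscivores of 2022, the compact myelin genes ranged more widely from fish to fish than the means of the 4 groups did. In CPM, mpz stood at 4323, 12157 and 6052 in piscivores 1, 2 and 3 of 2022 and at 4715, 4919 and 7072 in planktivores 2, 3 and 4 of 2022. In 2023 it stood at 3540, 4991 and 5231 in piscivores 1, 2 and 4 and at 4450, 5189 and 4389 in planktivores 4, 5 and 6. A single brain, piscivore 2 of 2022, lay far above the other 11, which stayed within 3540 and 7072 CPM.

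The same brain was highest for mbpa, with 7064 CPM against 2200 and 3549 in the other piscivores of 2022. The planktivores of 2022 had 4540, 3481 and 3518 CPM of mbpa, the piscivores of 2023 had 1999, 3840 and 3064, and the planktivores of 2023 had 3907, 3592 and 2703. All 4 groups overlapped.

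For plp1b the piscivores of 2022 had 1741, 4872 and 2444 CPM and the planktivores of that year 2487, 2164 and 2967. The piscivores of 2023 had 1660, 2524 and 2035 CPM and the planktivores of 2023 had 2378, 2609 and 2374. Again the highest and the lowest library belonged to piscivores, and the planktivores lay between them.

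The other sheath genes spread in the same way. From lowest to highest library, mag ran from 381 over a median of 727 to 1369 CPM, ugt8 from 204 over 310 to 705 CPM, and myrf from 64.1 over 96.2 to 189 CPM, each lowest in piscivore 1 of 2023 and highest in piscivore 2 of 2022. Over the 10 genes the median ratio of the highest to the lowest library was 2.95. The ratio of the highest to the lowest group mean was smaller, between 1.39 for plp1a and 1.64 for mpz.

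When the 4 group means of each gene were ranked, 26 of the 30 neighbouring pairs differed by less than the larger of their SDs. For 6 genes (mbpa, mpz, plp1a, plp1b, ugt8 and myrf) this held for every neighbouring pair. Piscivores of 2022 had the highest mean for 7 genes, among them mpz with 7511 ± 4116 CPM (SD, n = 3), and piscivores of 2023 the lowest mean for 8 genes, among them mpz with 4588 ± 915 CPM (SD, n = 3). The order of the means did not follow body length for any of the 10 genes. The share of the variance of log2 CPM that lay between groups had a median of 21.7% over the 10 genes (11.9% for ugt8 to 65.8% for olig1). Its median was 42.5% over the 21789 genes tested in all 12 libraries. This share was not corrected for the number of groups, so an arbitrary grouping of the libraries would also give a positive share.

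The first comparison asked whether piscivores differed from planktivores of the same year. A gene was called at a Benjamini-Hochberg adjusted p below 0.05 in edgeR's quasi-likelihood test over all genes and a change of more than 1 on the log2 scale. In 2023, 0 of the 10 genes were called by edgeR and 0 by DESeq2, beside 0.168% of the 21386 genes tested. This share is edgeR's, as are all shares of genes called or at an unadjusted p below 0.05 given below. By DESeq2 410 of 29364 genes were called in this comparison, and its counts for the others are given at the end. At an unadjusted p below 0.05 there were 3 (also 3 by DESeq2), beside 13.7% of all genes. The 2 groups did not overlap in CPM for those 3, beside 20.3% of all genes.

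These 3 were enpp6, olig2 and plp1a. For enpp6 the piscivores of 2023 had 17.4, 17.7 and 12.7 CPM and the planktivores 11.5, 10.9 and 8.72 CPM. All 3 piscivores lay above all 3 planktivores, with a log2 fold change of 0.64 (SE 0.18, 95% interval 0.22 to 1.06) and an adjusted p of 0.205. For olig2 the piscivores had 40.7, 57.9 and 51.8 CPM and the planktivores 71.4, 64.7 and 63.1 CPM. All piscivores lay below all planktivores, with a log2 fold change of -0.39 (SE 0.15, 95% interval -0.73 to -0.04) and an adjusted p of 0.322. For plp1a the piscivores had 42.6, 62.4 and 60.2 CPM and the planktivores 64.7, 82.9 and 82.8 CPM. They too were all lower, with a log2 fold change of -0.46 (SE 0.18, 95% interval -0.88 to -0.04) and an adjusted p of 0.329. The remaining 7 genes overlapped between the groups, and mpz differed by -0.01 on the log2 scale (95% interval -0.44 to 0.42). The median over the 10 genes was -0.22, beside -0.0010 over all genes, and the 95% interval stayed within a change of 1 on the log2 scale for 8 of the 10. Without piscivore 1 of 2023, the lowest brain, the median was -0.07, and 1 gene, enpp6 (0.56), had an unadjusted p below 0.05. The share of all genes was not counted for that fit, in which plp1a stood at -0.31 and olig2 at -0.26. In the same comparison 8 of 12 telencephalon markers, 8 of 14 meningeal markers and 7 of 13 microglia markers were higher in piscivores at an unadjusted p below 0.05 and 0 lower, and their part in the members' values was not tested.

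In 2022, 0 of the 10 genes were called by edgeR and 0 by DESeq2, beside 0.0533% of 20624 genes. At an unadjusted p below 0.05 there was 1 by each tool, beside 7.25% of all genes, and it was also the only member whose groups did not overlap, beside 13.7% of all genes. This was olig1, with 5.18, 6.44 and 4.83 CPM in the piscivores and 2.87, 3.34 and 3.93 CPM in the planktivores. All piscivores were above all planktivores, with a log2 fold change of 0.71 (SE 0.22, 95% interval 0.19 to 1.22) and an adjusted p of 0.526. The median over the 10 genes was 0.18, and it was -0.26 without piscivore 2 of 2022. With the wide spread among the piscivores of 2022, the 95% interval stayed within a change of 1 on the log2 scale for 4 genes only, and for ugt8 it reached from -0.52 to 1.46. Here 9 of 13 meningeal markers tested were higher in piscivores at an unadjusted p below 0.05, and their part in the members' values was not tested either.

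**Figure D2:**
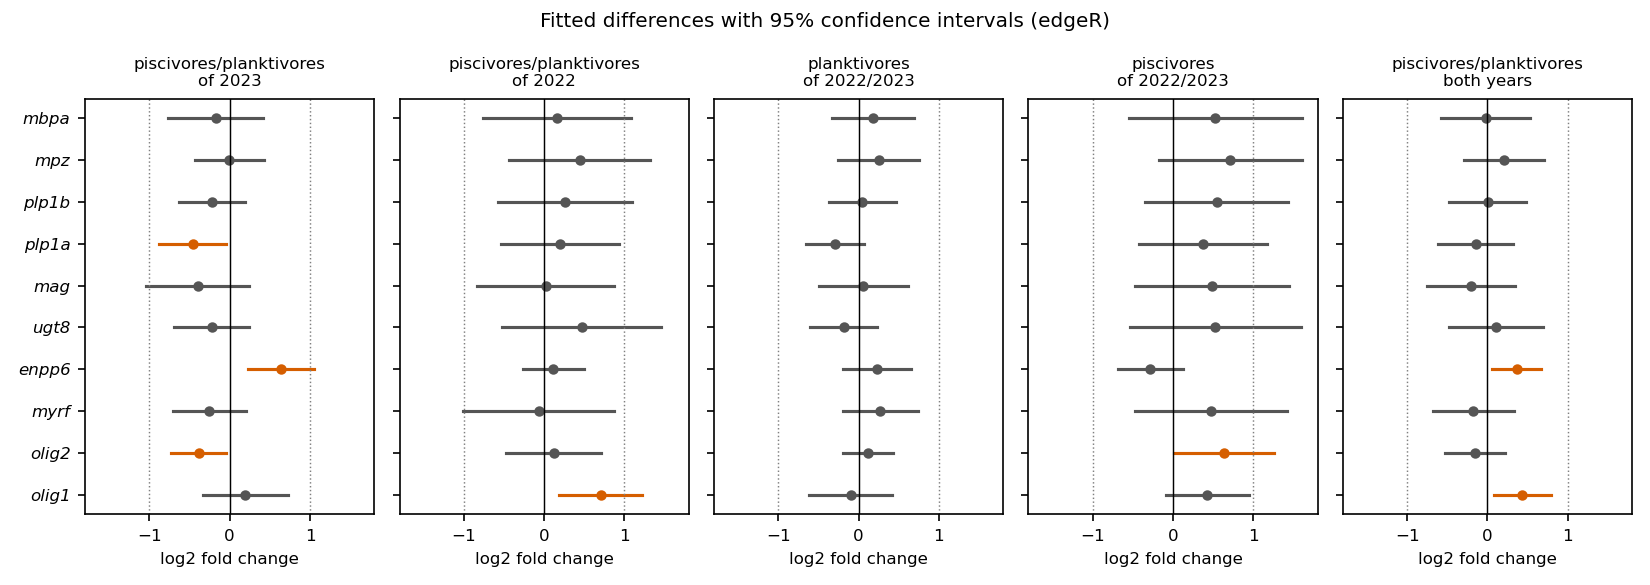
Log2 fold change of each gene (points) with its 95% confidence interval (lines) from edgeR in 5 comparisons, the first-named group over the second. Orange marks an unadjusted p below 0.05, dotted lines mark a change of 1 either way, and no gene passed after adjustment, where the smallest adjusted p was 0.205 for enpp6 in 2023.

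With both years in 1 model and year as a term, 0 of the 10 genes were called by edgeR and 0 by DESeq2, beside 0.298% of 21789 genes. At an unadjusted p below 0.05 there were 2 by each tool, beside 14.9% of all genes, and both estimates were positive, that is, higher in piscivores. For olig1 the log2 fold change was 0.43 (SE 0.16, adjusted p = 0.238) and for enpp6 it was 0.36 (SE 0.14, adjusted p = 0.244). The other 8 genes lay between -0.20 (mag) and 0.20 (mpz), with a median over all 10 of -0.01, and for all 10 genes the 95% interval stayed within a change of 1 on the log2 scale. Without piscivore 2 of 2022 the count at an unadjusted p below 0.05 was 6, and the share of all genes was not counted for that fit. Then olig2 (-0.33), plp1a (-0.38), myrf (-0.43) and mag (-0.45) stood lower in piscivores and enpp6 (0.41) and olig1 (0.36) higher. The smallest adjusted p was 0.170. That brain was the highest for 9 of the 10 genes, so leaving it out lowers the piscivore mean of those 9.

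Whether the phenotype difference itself changed between the years was tested as an interaction. By edgeR 0 of the 10 genes were called, 0 had an unadjusted p below 0.05 and DESeq2 gave 0 for both, beside 0.0138% of all genes called and 6.40% at an unadjusted p below 0.05. The estimates ran from -0.71 (ugt8) to 0.52 (enpp6) with SEs of 0.24 to 0.52, so that a change of 1 on the log2 scale lay within the 95% interval of all 10 genes. The median of these estimates rested on piscivore 2 of 2022. Without that brain the median over the 10 genes was 0.07 in place of -0.48, and ugt8 stood at -0.03. The estimates still ran from -0.37 (olig1, -0.52 with that brain) to 0.53. With all libraries, 0 interactions had an unadjusted p below 0.05 in edgeR's main fit or by DESeq2. In edgeR fits with no filter beyond 1 count and without the 20 most counted genes there was 1 each. The smallest adjusted p of a member was 0.943 and 0.793 there, and the share of all genes was not counted for these fits. The difference of enpp6 in 2023 and that of olig1 in 2022 are therefore not shown to be particular to those years.

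The second comparison set the years against each other within a phenotype. Between the planktivores of 2022 and 2023, the shorter pair of groups, 0 of the 10 genes were called by edgeR and 0 by DESeq2, beside 0.971% of 21311 genes. At an unadjusted p below 0.05 there were 0 with either tool, beside 20% of all genes, and 0 separated the groups, beside 27.6%. The log2 fold changes lay between -0.29 (plp1a) and 0.27 (myrf), and every 95% interval stayed between -0.66 and 0.75.

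Between the piscivores of 2022 and 2023, 0 of the 10 genes were called by edgeR and 0 by DESeq2, beside 0.356% of 20511 genes. At an unadjusted p below 0.05 there was 1 by edgeR (2 by DESeq2), beside 17.3% of all genes. This was olig2, with 55.4, 112 and 65.8 CPM in 2022 and 40.7, 57.9 and 51.8 CPM in 2023, a log2 fold change of 0.63 (SE 0.27, adjusted p = 0.284). The groups overlapped for olig2, and olig1 was the 1 gene whose groups did not, beside 24.5% of all genes, with a log2 fold change of 0.43 (SE 0.22, adjusted p = 0.359). Of the 10 genes 9 had positive log2 fold changes, mpz the highest with 0.71 (95% interval -0.18 to 1.61), and the median was 0.51. That median rested on 1 fish: without piscivore 2 of 2022 it was -0.01, and without that brain and piscivore 1 of 2023 it was -0.22.

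Along the 4 groups in order of body length, 0 of the 10 genes were called by edgeR and 0 by DESeq2, beside 0.0918% of 21789 genes. At an unadjusted p below 0.05 there was 1 by edgeR (2 by DESeq2), beside 13.9% of all genes. This was olig1, with group means of 3.62 ± 0.56, 3.38 ± 0.53, 4.11 ± 0.73 and 5.48 ± 0.85 CPM (SD, n = 3) from the shortest to the longest fish. Its log2 change per step was 0.21 (SE 0.07, 95% interval 0.05 to 0.36, adjusted p = 0.240), and it was 0.16 without piscivore 2 of 2022. The estimates of the remaining 9 genes ran from -0.05 (plp1a) to 0.18 (mpz) per step, with a median over all 10 of 0.07. Without piscivore 2 of 2022 that median was -0.10, and 3 genes had an unadjusted p below 0.05, plp1a (-0.19), enpp6 (0.18) and olig1. The smallest adjusted p was 0.222. The share of all genes was not counted for that fit either, and the brain left out was the highest for plp1a and olig1.

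The 8 genes other than enpp6 and olig1 varied together from brain to brain, in each year, though less closely without the highest and the lowest brain. Over the 45 pairs of genes, log2 CPM across the 12 libraries gave a median Pearson r of 0.76. After Benjamini-Hochberg adjustment over the 45 pairs, 29 pairs had a permutation p (two-sided, 100000 permutations) below 0.05 for Pearson's r and 14 for Spearman's rho. The 29 were the 28 pairs among mbpa, mpz, plp1a, plp1b, mag, ugt8, olig2 and myrf, with r from 0.65 to 0.92 and rho from 0.22 to 0.89, and the pair of mpz with olig1.

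The pair of mag and myrf had an r of 0.90 (permutation adjusted p = 0.00090) and a rho of 0.89 (adjusted p = 0.0139). It kept an r of 0.81 without the 2 libraries farthest from the median of mag, and had 0.90 within 2022 and 0.97 within 2023. In each pair these 2 libraries were chosen by the first gene of the pair only, so they differ between pairs. The pair of olig2 and plp1b had an r of 0.92 (adjusted p = 0.00090) and a rho of 0.82 (adjusted p = 0.0219), and without the 2 farthest libraries an r of 0.76. Other pairs rested more on the extreme brains. The r of mbpa with mag was 0.65 over 12 libraries and -0.06 without the 2 farthest.

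Over all 45 pairs the median r was 0.37 without the 2 libraries farthest from the median of the first gene of each pair. It was 0.32 without piscivore 2 of 2022 and piscivore 1 of 2023, 0.79 within 2022 and 0.71 within 2023 (6 libraries each). Each year held 1 of these 2 brains, so the values within a year are not free of them. For the 28 pairs of the 8 genes, the median r was 0.84 over all libraries. Without these 2 brains it was 0.53, with r from -0.06 to 0.81. As a background, 2.70% of the 21788 other genes tested had an r above 0.7 with plp1b, and 7 of the 9 other members did. Piscivore 2 of 2022 had the highest mean of the members' z-scored log2 CPM, 2.01, followed by planktivore 4 of 2022 with 0.46, and piscivore 1 of 2023 had the lowest, -1.18, next to piscivore 1 of 2022 with -0.71. The other 8 brains lay between -0.26 and 0.26.

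**Figure D3:**
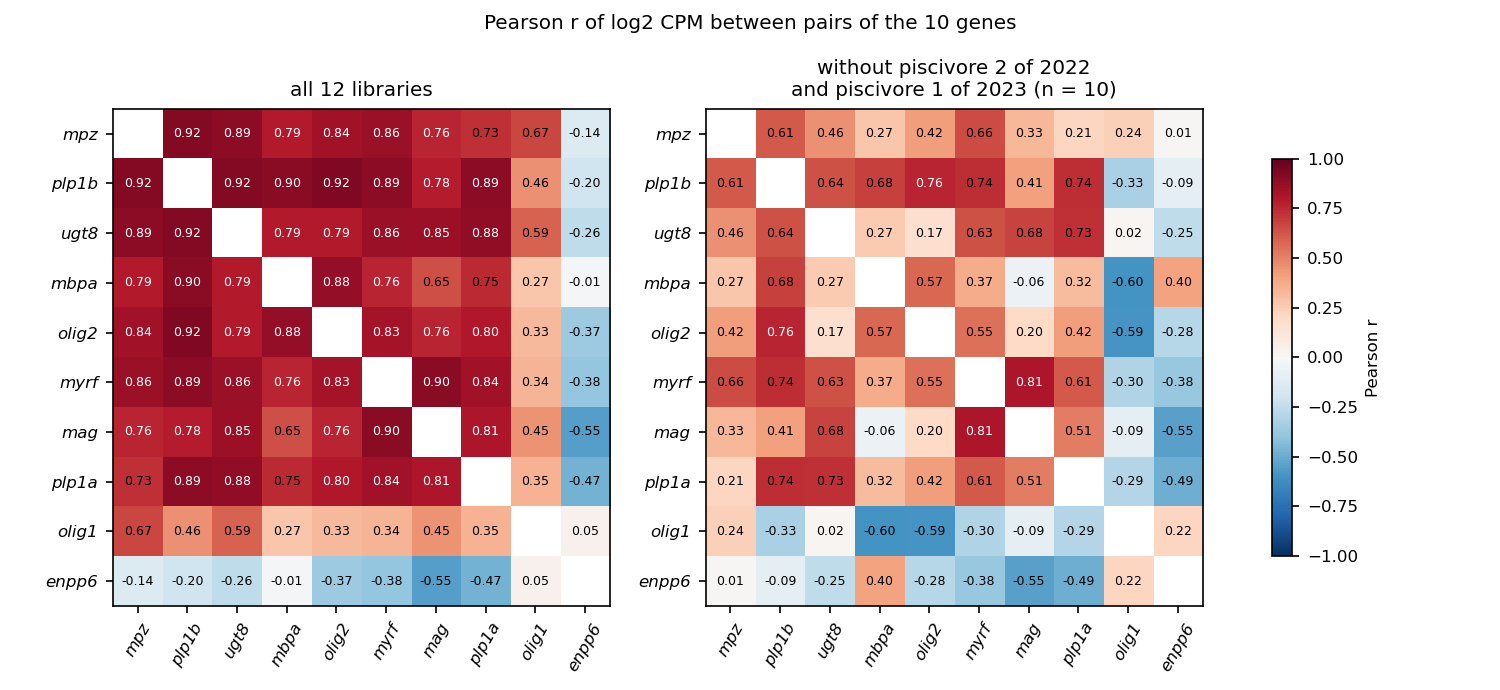
Pearson r of log2 CPM between each pair of the 10 genes, over all 12 libraries (left) and over the 10 libraries left without the highest and the lowest brain (right), with the value in each cell. The red block of 8 genes runs from 0.65 to 0.92 on the left and from -0.06 to 0.81 on the right, and enpp6 stays between -0.55 and 0.05 on the left.

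Across all 12 libraries enpp6 and olig1 departed from the shared pattern. For enpp6, 0 of its 9 pairs had an adjusted p below 0.05, with r from -0.55 (with mag, adjusted p = 0.0939, rho -0.54) to 0.05 (with olig1). It was the 1 member that was neither highest in piscivore 2 of 2022 (12.8 CPM, the median of the 12 libraries being 12.5) nor lowest in piscivore 1 of 2023, where it stood at 17.4 CPM, next to its highest value of 17.7 CPM in piscivore 2 of 2023. As a result the TPM ratio of mpz to enpp6 ran from 109 in piscivore 1 of 2023 to 508 in piscivore 2 of 2022. The ratio of mpz to plp1b, by contrast, stayed within 0.968 and 1.35 in all 12 libraries, and that of mbpa to plp1b within 1.47 and 2.36.

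The neighbours olig1 and olig2 had an r of 0.33 (permutation adjusted p = 0.349) and a rho of -0.01 (adjusted p = 0.974). The r was -0.02 without the 2 libraries farthest in olig1, and -0.59 without piscivore 2 of 2022 and piscivore 1 of 2023. Their r was 0.37 within 2022, -0.03 within 2023 and 0.56 for deviations from the group means. With mpz, olig1 had an r of 0.67 (adjusted p = 0.0245) and a rho of 0.50 (adjusted p = 0.175). That r was 0.45 without the 2 libraries farthest in mpz, and 0.24 without piscivore 2 of 2022 and piscivore 1 of 2023. Taken as deviations from the group means, olig1 followed the 8 genes more closely, with r from 0.42 (mbpa) to 0.94 (mag) and a median of 0.73, whereas without piscivore 2 of 2022 and piscivore 1 of 2023 the median of its 8 pairs across libraries was -0.30.

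Outside the 10 members, the genes whose log2 CPM was most like the mean of the members' z-scores over the 12 libraries had Pearson r from 0.95 to 0.97, given as a description. The closest was slc49a3, a solute carrier family gene, with r = 0.97 and 7.34 to 17.9 CPM. Among the next 9 were rspo2, which encodes a secreted amplifier of Wnt signalling (r = 0.95, 7.82 to 52.7 CPM), the connexin gene cx31.7 (r = 0.95, 30.3 to 122 CPM), sox10 (r = 0.95) and tbc1d23 (r = 0.95). The other 5 carry identifiers without a name, LOC116052831, LOC116067786, LOC116056179, LOC116038254 and LOC116065011. The transcription factor gene sox10, which is needed for oligodendrocytes and for Schwann cells, stood at 63.4 CPM in piscivore 2 of 2022 and 24.7 CPM in piscivore 1 of 2023, again the highest and the lowest library. All 10 of these genes had their highest library in the former and their lowest in the latter brain. That followed largely from the choice, as these 2 brains were the extremes of the mean z-score. Without the 2 brains the r of the 10 genes ran from 0.67 (tbc1d23) to 0.87 (slc49a3).

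Markers of brain regions and the neurofilament gene nefma differed between the same brains. The 27 of 31 listed caudal hox genes found, which are expressed in hindbrain and spinal cord, summed to 146 CPM in piscivore 2 of 2022 and 1.23 CPM in piscivore 1 of 2023. Their sums ranged from 1.1 to 146 CPM within piscivores of 2022, 2.92 to 244 within planktivores of 2022, 1.23 to 82.0 within piscivores of 2023 and 3.43 to 139 within planktivores of 2023. The highest mean z-scores of the members were 2.01, 0.46, 0.26 and 0.16. They belonged to piscivore 2 of 2022, planktivore 4 of 2022, planktivore 5 of 2023 and piscivore 2 of 2023. The hox sums of these brains were 146, 244, 139 and 82.0 CPM. Planktivore 3 of 2022 had 104 CPM at a mean z-score of -0.17. The lowest sum, 1.1 CPM, was in piscivore 3 of 2022, whose mean z-score was -0.01. The remaining brains had 1.23 to 10.2 CPM. How far the hox sum and the members go together was not tested. The 12 of 17 telencephalon genes found, expressed in the forebrain, summed to 38.9 CPM in piscivore 2 of 2022, the lowest of all libraries, and 252 CPM in piscivore 1 of 2023, the highest. Their sums ranged from 38.9 to 203 CPM in piscivores of 2022, 60.1 to 138 in planktivores of 2022, 143 to 252 in piscivores of 2023 and 91.1 to 97.5 in planktivores of 2023.

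The forebrain gene foxg1a was at 0.168 CPM in piscivore 2 of 2022, which is 3 reads, and at 25.3 CPM in piscivore 1 of 2023, but it was also between 0.132 and 1.40 CPM in planktivores 2 and 4 of 2022 and in all planktivores of 2023. The neurofilament gene nefma, expressed in large axons, stood at 2595 CPM in the former and 239 CPM in the latter, and its r with the mean z-score of the members was 0.93 (rank 23 of all other genes, a description). A second neurofilament gene, nefla, stood at 1073 and 96.6 CPM. The 20 neuron and axon genes found, which include both, differed less, with sums of 13054 and 8083 CPM. Among them snap25a stayed within 2438 and 3497 CPM and elavl3 within 376 and 571 CPM in all libraries. Of the 27 caudal hox and 12 telencephalon genes, 0 were at 0 in all libraries. Piscivore 1 of 2023 also had 248 CPM of the cartilage gene col10a1a, which reached at most 9.27 CPM in the other 11 libraries. The part of region, axon content or other tissue in the members' levels was not tested, and in whole-brain RNA fewer oligodendrocytes and less RNA per oligodendrocyte cannot be told apart.

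**Figure D4:**
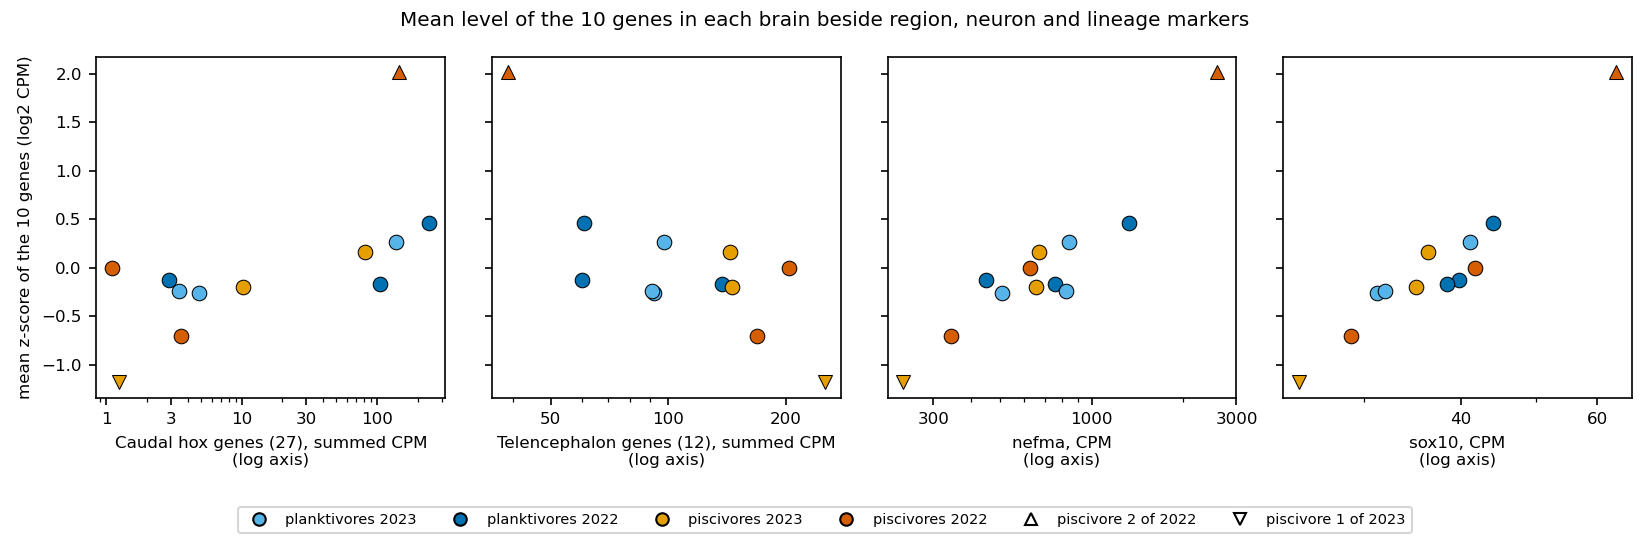
Mean z-score of the 10 genes in each brain against the summed CPM of caudal hox genes and of telencephalon genes and the CPM of nefma and sox10 (log axes), 1 point per brain, coloured by group. Piscivore 2 of 2022 (upward triangle) stands at 38.9 CPM of telencephalon genes and 2595 CPM of nefma, and piscivore 1 of 2023 (downward triangle) at 252 CPM and 239 CPM. The gene sox10 was picked by its r with this score and nefma after its values were seen, so their course with the score follows largely from the choice.

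Further myelin genes in 4 lists and a list of precursor markers were read in the same fits, each by its counts and its median. Among the 11 further compact myelin genes found, 9 or 10 were tested, and edgeR called 1 in 1 comparison, between the planktivores of 2022 and 2023, where DESeq2 called 2. The gene called by edgeR was mbpb, the second gene of myelin basic protein, on chromosome 10 from 36327155 to 36384316. It stood at 13.6, 10.6 and 11.7 CPM in the planktivores of 2022 and at 4.97, 6.80 and 5.65 CPM in those of 2023. The groups did not overlap, and the log2 fold change was 1.04 (SE 0.18, 95% interval 0.61 to 1.46, edgeR adjusted p = 0.0494). The call was lost without any 1 of the 6 libraries (planktivores 2, 3 and 4 of 2022 and 4, 5 and 6 of 2023), with log2 fold changes of 0.94 to 1.17 and adjusted p of 0.0651 to 0.183. The far more abundant mbpa differed by 0.18 between the same groups (95% interval -0.33 to 0.69), and exceeded mbpb 93.2 to 336 times in TPM. The piscivores had 10.1, 10.3 and 9.41 CPM of mbpb in 2022 and 5.86, 8.27 and 8.07 CPM in 2023, without overlap, with a log2 fold change of 0.44 (adjusted p = 0.275). The median log2 fold change of the compact myelin list lay between -0.15 and -0.06 in the 7 comparisons. Only unique reads were counted, so any reads shared between copies such as mbpa and mbpb or plp1a and plp1b would be missing from both. The number of such reads was not measured.

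Of the 19 further axon contact and membrane genes tested, 0 were called by edgeR and 0 by DESeq2 in any of the 7 comparisons. In 2023, 3 were higher and 2 lower in piscivores at an unadjusted p below 0.05, beside 13.7% of all genes, and the smallest p belonged to tmem98 (log2 fold change 0.79), s1pr5b (0.98) and the neuregulin receptor gene erbb3b (-0.63), with adjusted p of 0.162 to 0.196. Of the 18 to 19 further lipid enzymes tested, edgeR called 0 and DESeq2 at most 1 per comparison. In 2022, 5 of 18 were higher in piscivores at an unadjusted p below 0.05 and 0 lower, beside 7.25% of all genes, among them the enzymes of cholesterol synthesis sqlea (log2 fold change 1.64, adjusted p = 0.252) and dhcr7 (0.75, adjusted p = 0.322). In 2023 the count was 1 higher and 2 lower of 19, beside 13.7% of all genes. Over both years it was 5 higher and 0 lower of 19, beside 14.9% of all genes. In the interaction it was 0 higher and 5 lower of 19, beside 6.40% of all genes. With its 2 members, ugt8 and enpp6, the list summed to 757, 1660 and 920 CPM in piscivores 1, 2 and 3 of 2022. Of these sums ugt8 alone made 230, 705 and 283 CPM. Between the planktivores of 2022 and 2023 the count was 0 higher and 4 lower of 18, a share near the 20% of all genes, with sqlea at -1.18 (adjusted p = 0.0884). For degs1, a desaturase of sphingolipid synthesis, the estimate in both years together was 0.31 (SE 0.08, adjusted p = 0.0964) and along body length 0.17 per step (adjusted p = 0.0873).

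Of the 17 to 18 further lineage transcription factors tested, edgeR called 0 and DESeq2 at most 1 per comparison. In 2023, 0 were higher and 2 lower in piscivores at an unadjusted p below 0.05, a share below the 13.7% of all genes. These were nkx2.2a (log2 fold change -0.64, adjusted p = 0.172) and nkx6.2 (-0.60, adjusted p = 0.194), both ventral patterning factors that act in the oligodendrocyte lineage, and the list's median was -0.29. In 2022 the count was 0 higher and 1 lower, ascl1a (-0.95, adjusted p = 0.471), with a median of 0.01.

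Of the 10 precursor markers tested, edgeR called 0 in each comparison and DESeq2 at most 2. Over both years, 4 were higher in piscivores at an unadjusted p below 0.05 and 0 lower, beside the 14.9% of all genes given above. The smallest p belonged to ppfibp1a (log2 fold change 0.63, adjusted p = 0.0743), bcan, a proteoglycan of the brain matrix (1.60, adjusted p = 0.0846), and tnr, a matrix glycoprotein (0.63, adjusted p = 0.184). The gene pdgfra of this list had 12.7, 14.6 and 17.6 CPM in the piscivores and 9.93, 17.4 and 16.8 CPM in the planktivores of 2022, which overlapped. In 2023 it had 23.1, 18.3 and 20.4 CPM in the piscivores and 16.0, 11.5 and 7.37 CPM in the planktivores, which did not overlap (log2 fold change 0.86, adjusted p = 0.228). Of 2 further markers of the lineage in the list, the proteoglycan gene cspg4 had -0.10 over both years (adjusted p = 0.884) and the receptor gene gpr17 had 0.19 (adjusted p = 0.613). In 2023 alone cspg4 had 0.08 (edgeR adjusted p = 0.914) and gpr17 0.16 (edgeR adjusted p = 0.801). The median of the list was 0.31 over both years, beside -0.01 over all genes. In the same comparison 5 of 11 astroglial markers (median 0.32), 9 of 14 meningeal markers (median 0.70) and 5 of 12 telencephalon markers (median 0.998) were higher at an unadjusted p below 0.05 and 0 lower, and their part in the values of the precursor list was not tested. Along body length bcan had 0.83 per step (adjusted p = 0.0822) and tnr 0.46 per step (adjusted p = 0.134). The summed CPM of the list was 318 to 381 in planktivores and 426 to 551 in piscivores of 2023. In 2022 it was 332 to 492 in planktivores and 547 to 676 in piscivores. These sums did not overlap within either year. Of all single genes 20.3% did not overlap in 2023 and 13.7% in 2022, but no such share was counted for sums of lists or for both years together. Sums of the meningeal list also did not overlap, with 216 to 337 against 406 to 865 CPM in 2023 and 231 to 392 against 432 to 515 CPM in 2022. Of the precursor sum, pdgfra made at most 23.1 CPM, cspg4 9.52 and gpr17 65.2 in any library.

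The other 10 lists marked other cells and regions. The 14 of 20 Schwann cell and cranial nerve genes found summed to 3735 to 12437 CPM, most of it mpz, with 0 of the 14 at 0 in all libraries. In this list prx, a gene of myelinating Schwann cells, stood at 1.78 to 7.01 CPM and egr2b at 1.13 to 3.27 CPM. Higher levels were seen for pmp22b, with 5.22 to 125 CPM, and for cdh19, with 6.96 to 29.6 CPM. The highest library of cdh19 was piscivore 2 of 2022 and the lowest piscivore 1 of 2023. Its r with the mean z-score of the members was 0.93 (rank 24 of all other genes, a description). In the 7 comparisons edgeR called 0 genes of the Schwann, microglia, neuron, caudal hox and cerebellum lists. It called the astroglial gene atp1a2a (lower in piscivores of 2022 than of 2023), the telencephalon gene tbr1b (higher in piscivores of 2023), and the meningeal gene lum (higher in piscivores over both years). It also called the red blood cell genes kel and nt5c2l1 (lower in piscivores than in planktivores of 2023), nt5c2l1 and slc4a1a (lower in planktivores of 2022 than of 2023), and kel over both years and along body length (lower in piscivores and in longer fish). The muscle genes ckma and ckmb were called lower in piscivores than in planktivores of 2022, and ckma over both years. Each of these calls other than nt5c2l1 between the planktivores was lost without at least 1 single library. The summed CPM of the neuron list was 8200 to 13054 in piscivores of 2022, 7539 to 9971 in planktivores of 2022, 8083 to 9606 in piscivores of 2023 and 9355 to 10988 in planktivores of 2023.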

How the data were processed

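RNA of 12 whole brains, kept in RNAlater, was sequenced as poly(A) libraries. The authors trimmed the reads with Trimmomatic, aligned them with STAR (2.5.2 per the submitters' processing notes) to the SLUC_FBN_1.2 assembly and counted unique reads within exons with featureCounts. The deposited values are counts per gene and TPM derived from them by the authors. Whether counting used strand is not given in the sources used here. The 24 lines naming no gene (0.589% to 3.18% of counts) were left out.

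Counts were tested with edgeR 4.0.16 in R 4.3.3 (filterByExpr, TMM, robust quasi-likelihood F test, Benjamini-Hochberg over all genes). Groups of 3 were fitted in pairs, and the phenotype difference with year as a term, the interaction and the trend over 12 libraries. Log2 CPM used a prior count of 2. Correlations used scipy 1.17.1. Scripts were tested on simulated data. DESeq2 1.42.0, other scalings and filters, a replicate block, TPM (pseudocounts 1 and 0.1) and left-out libraries were alternatives. Each library is 1 fish. The smallest p an exact permutation test of 3 against 3 could give is 0.1, so single genes were tested in the fit across all genes.

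The 10 members and the 15 gene lists were chosen with earlier results of these data known. Of the lists, every gene that edgeR called in a comparison is named, and otherwise up to 3 with the smallest p, apart from 1 gene that is not reported here. Further single genes (foxg1a, nefma, nefla, snap25a, elavl3, pdgfra, cspg4, gpr17, prx, egr2b, cdh19, col10a1a) were chosen after their values were seen.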

Additional observations from a re-analysis of the deposited data

How the results depend on the processing

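In the 116 fits run over the 7 comparisons 0 of the 10 genes were called, also with an adjusted p below 0.05 alone. The smallest adjusted p of a member was 0.0720 (DESeq2) with all libraries and 0.154 with 1 library left out. The 8 member differences with an unadjusted p below 0.05 kept their sign in every fit. Of all 70 member differences, 35 changed sign in at least 1 fit with a library left out, and 4 of 449 values did so under another scaling, filter, tool or model with all libraries. The median ratio of highest to lowest library was 2.95 in CPM, 2.65 on TPM and 2.61 with a pseudocount of 1. Replicate numbers name different fish, and the deviations of same-numbered libraries had r of -0.31 to 0.14. With the replicate block, run in 5 comparisons, 0 members were called, 10 of 50 values changed sign, and 18 (2022), 1 (piscivores), 0, 0 and 0 (both years, interaction, trend) of all genes were called. In the remaining pair of comparisons no paired analysis was possible because the groups share fewer than 2 numbers. Leaving out piscivore 2 of 2022 and piscivore 1 of 2023 was chosen after seeing the data. The background counts depended on the tool: DESeq2 called 410, 149, 618 and 392 genes in the pairwise comparisons (2023, 2022, planktivores, piscivores) against 36, 11, 207 and 73 by edgeR, 220 against 65 over both years, 92 against 3 for the interaction and 283 against 20 for the trend. Across other settings with all libraries the edgeR count fell to 5 in 2023 (1 fit to all 12 libraries) and 24 for piscivores (at least 10 counts in every library). It rose to 419 for planktivores (1 fit to all 12 libraries), to 127 for the trend with year as a further term, 40 without the 20 most counted genes and 37 with at least 10 counts in every library, and to 60 in 2023, 43 in 2022 and 125 for piscivores with no filter beyond 1 count. The range with 1 library left out was 1 to 16, 0 to 2, 12 to 148, 22 to 77, 1 to 113, 0 to 8 and 0 to 109 in the same order. With 3 fish a group and 1 brain at each extreme, the pairwise comparisons with piscivores of 2022 were imprecise. The SEs of members reached 0.42 against planktivores of 2022 and 0.45 against piscivores of 2023. For most sheath genes the confidence intervals there reached beyond a change of 1 on the log2 scale. The absence of calls therefore does not exclude a difference of 1 in these genes, or a smaller one. The smallest difference that could have been called was not determined.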

Other observations

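The compact myelin list held 1 gene that split the libraries of 2023. The gene pmp22b, which encodes a peripheral myelin protein also made outside myelin, stood at 114 and 125 CPM in piscivores 2 and 4 of 2023 and at 116 and 94.6 CPM in planktivores 4 and 6 of 2023. It stood at 21.9 CPM in piscivore 1 and 15.4 CPM in planktivore 5 of 2023, and between 5.22 and 25 CPM in the 6 libraries of 2022. The high libraries include both phenotypes, and none of the 10 members separated the libraries in this way. It was chosen after its values were seen, and no cause was tested.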
